A study of Penicillium oxalicum with 12 samples.

Results

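The effect of deleting *Podot1* on gene expression in *Penicillium oxalicum* was measured in glucose medium, in the 6 of 12 libraries whose labels name this medium: 3 of Δ*Podot1* and 3 of the wild type (WT). WT is strain 114-2, a filamentous fungus known for its secreted cellulases. In Δ*Podot1* the *Podot1* coding region is replaced by *hph*, a hygromycin B resistance gene that WT does not carry, and whether its libraries come from 1 transformant is not given in the sources used here. Both strains were precultured on glucose, moved as mycelia to a medium with 2% glucose, and harvested after 24 h at 30°C as 3 biological replicates each. The other 6 libraries come from a medium with 1% cellulose and 1% wheat bran. From that medium only levels of WT are used, apart from the counts of *Podot1* and 1 alternative fit of all 12 libraries. Estimated counts summed to 6572885 to 6664329 in the Δ*Podot1* libraries and 4829544 to 7081691 in the WT libraries, where replicate 1 was the shallowest.

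Dot1 is the methyltransferase that modifies lysine 79 of histone H3, a residue on the globular face of the nucleosome rather than on its tail. In yeast the mark is widespread over transcribed genes and takes part in keeping silent chromatin confined to the chromosome ends, and Dot1 has no SET domain, unlike most lysine methyltransferases of histones. In filamentous fungi, genes for secondary metabolites often lie side by side on the chromosome and are switched on and off as a block, and their regulation has been tied to several histone marks.

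The transcript of *Podot1* (PDE_07484) was close to absent in the deletion strain. It was at 0, 0.1 and 0.19 FPKM (fragments per kilobase of gene, scaled to the number of mapped reads) in Δ*Podot1* replicates 1, 2 and 3, from 0, 1 and 2 counts, and at 31.7, 25.8 and 28.99 FPKM in the WT replicates, from 241, 279 and 323 counts. The Δ*Podot1* level was thus 0.337% of the WT level at equal depth, with a 95% exact interval of 0.0693% to 0.988% that covers counting error only. In the cellulose medium 2 of the 3 libraries labelled Δ*Podot1* held 341 and 613 counts of this gene, so the libraries with that label are not compared here.

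The replicates were not equally close to each other. Across the tested genes, the Pearson correlation of log2(FPKM + 1) was 0.946 to 0.979 between Δ*Podot1* libraries and 0.934 to 0.990 between WT libraries. Between a Δ*Podot1* and a WT library it was 0.822 to 0.893. Genes are not independent replicates, and these values describe the libraries. WT replicates 2 and 3 were the closest pair (chi-square per gene 7.58, where the other pairs within a strain had 25.5 to 83.7), still further apart than sampling noise, and WT replicate 1 stood apart from both. Δ*Podot1* replicate 3 was the library of its strain with the higher correlation with each WT library.

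In Δ*Podot1*, 905 genes were called higher and 612 lower than in WT, out of 8479 tested. The test was edgeR's quasi-likelihood test, and a call needed both a 2-fold change and an adjusted p (Benjamini-Hochberg) under 0.05. The calls made up 17.9% of the tested genes, 10.7% higher and 7.22% lower, so that 59.7% of the called genes were higher in Δ*Podot1*. As these are bulk mycelia, more cells of a kind and more RNA per cell cannot be told apart in any of the values. The median log2 fold change over all tested genes was 0.01, and 50.7% of them had a value above 0. There were 1000 calls, 584 of them higher, when Δ*Podot1* replicate 2 was left out. With WT replicate 2 left out, 594 genes were called higher. In all 6 fits that leave out 1 library, 504 of the 905 higher and 385 of the 612 lower genes were called the same way.

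**Figure D1:**
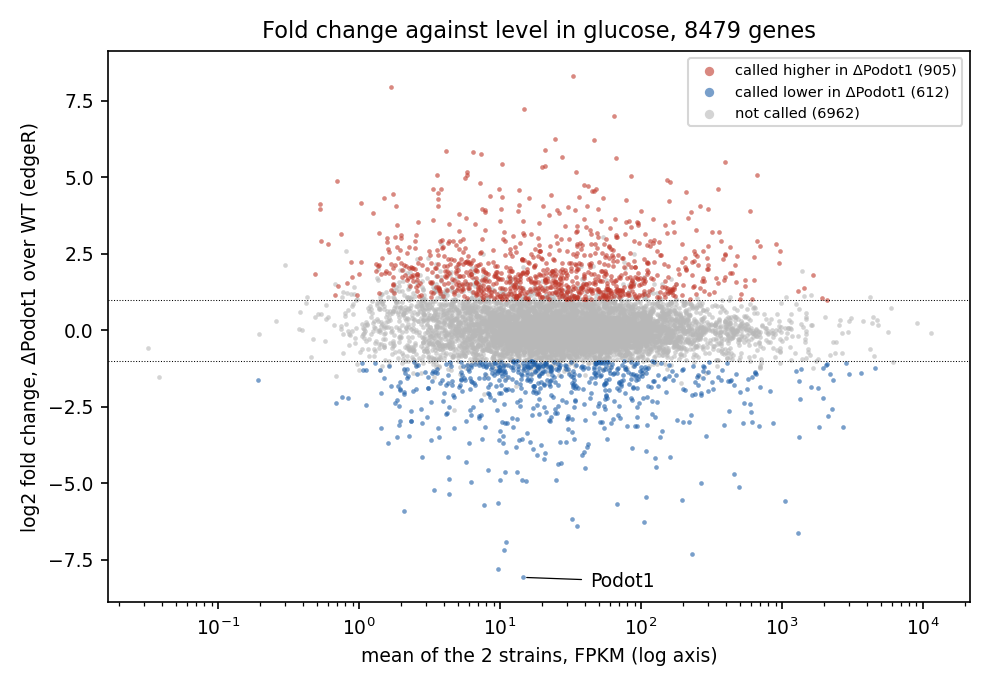
Fold change of each of the 8479 tested genes (log2, Δ*Podot1* over WT, edgeR) against the mean FPKM of the strains on a log axis; dotted lines mark a 2-fold change. Genes called higher in Δ*Podot1* (905, red) and called lower (612, blue) are found at all levels, and *Podot1* has a log2 fold change of -8.07.

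Fold sizes were similar for genes called in either direction. The median change was 3.48-fold among the genes called higher in Δ*Podot1* and 3.24-fold among those called lower. A 4-fold change was reached by 362 (40.0%) of the higher and 226 (36.9%) of the lower genes, which are 4.27% and 2.67% of all tested genes. An 8-fold change was reached by 134 and 99 genes, or 1.58% and 1.17% of the tested genes, and a 32-fold change by 22 and 19, or 0.259% and 0.224%. The FPKM values of the strains did not overlap for 866 of the 905 higher and for 612 of the 612 lower genes, while 42.3% of all tested genes had no overlap. The genes called higher took 10.995% to 15.5% of the summed FPKM in Δ*Podot1* libraries and 3.19% to 3.88% in WT libraries. Those called lower took 4.44% to 5.95% in Δ*Podot1* libraries and 17.3% to 19.7% in WT libraries. Since the calls chose these genes, the shares are a description.

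Within Δ*Podot1* the rises were not equally large in the replicates. Replicate 3 was the Δ*Podot1* library nearest to WT in 617 (68.2%) of the genes called higher and in 232 (37.9%) of those called lower. Among WT libraries, replicate 1 was nearest to Δ*Podot1* in 507 (56.0%) of the genes called higher and in 229 (37.4%) of those called lower. The part of these libraries in each result was not tested.

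At the 2-fold threshold the genes on either side had nearly the same values. Just inside it were PDE_04247, the ketol-acid reductoisomerase gene PDE_02091, PDE_00271 and PDE_01054, with log2 fold changes of -1.0004, 1.0017, -1.0032 and -1.0037. Just outside were the saccharopine dehydrogenase gene PDE_08476, PDE_02602, PDE_08153 and PDE_05410, with 0.998, -0.998, -0.995 and -0.994. Both enzymes take part in amino acid synthesis. Single libraries moved genes across the threshold: PDE_02091 had a log2 fold change of 0.88 without WT replicate 1 and 0.88 without Δ*Podot1* replicate 3, PDE_00271 had -0.84 without WT replicate 1, and PDE_04247 had -0.96 without Δ*Podot1* replicate 3.

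The largest rises joined genes of metabolism with genes of no known role. PDE_06415, whose best KEGG entry is the DNA repair protein RAD50, was at 84.1, 71.6 and 41.6 FPKM in Δ*Podot1* replicates 1 to 3 and at 0, 0.3 and 0.22 FPKM in the WT replicates (2531 counts against 7, a ratio at equal depth of 342, 95% exact counting interval 166 to 852). PDE_01119, annotated as a pseudouridine 5'-phosphatase, was at 99.5, 194 and 89.9 FPKM in Δ*Podot1* and 1.98, 0.8 and 0.39 FPKM in WT (log2 fold change 6.98, standard error 0.53, adjusted p = 0.000109, edgeR's quasi-likelihood test). PDE_00932, a cytochrome P450 of the averantin hydroxylase type, was at 55.7, 37.9 and 29.7 FPKM in Δ*Podot1* and 0.34, 0.79 and 0.77 FPKM in WT (log2 fold change 5.89, standard error 0.39, adjusted p = 7.62e-05, edgeR). These 3 genes were below 2 FPKM in every WT library and above 29 FPKM in every Δ*Podot1* library. PDE_04225, a hypothetical protein, was at 94.2, 85 and 97.3 FPKM in Δ*Podot1* and 2.28, 0.69 and 0.89 FPKM in WT (log2 fold change 6.22, standard error 0.37, adjusted p = 5.40e-05, edgeR). The other 2 of the 6 largest rises, PDE_08904 and PDE_08908, belong to the tyrosine pathway described with that group. All 6 were selected by fold.

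Among the largest falls, several transcripts were nearly lost. Next to *Podot1* itself stood PDE_02123, an O-methyltransferase of the type that methylates demethylsterigmatocystin in *Aspergillus*, at 0.22, 0 and 0 FPKM in Δ*Podot1* and 18.1, 20.4 and 19.8 FPKM in WT. Its 2 counts in Δ*Podot1* against 501 in WT give a ratio at equal depth of 0.00378 (95% exact counting interval 0.000456 to 0.0137). PDE_05721, a hypothetical protein, had 2 counts against 323, a ratio of 0.00586 (interval 0.000707 to 0.0213). In both genes every Δ*Podot1* library was below 0.3 FPKM and every WT library above 18 FPKM. PDE_03319, annotated as a phenol 2-monooxygenase, fell to 3.44, 2.54 and 3 FPKM in Δ*Podot1*, against 325, 558 and 488 FPKM in WT (log2 fold change -7.30, standard error 0.38, adjusted p = 5.12e-05, edgeR's quasi-likelihood test). PDE_07886, which resembles a cytoplasmic aspartate aminotransferase, was at 0.31, 0.1 and 0.1 FPKM in Δ*Podot1* and 29.9, 18.9 and 17.4 FPKM in WT (log2 fold change -6.91, standard error 0.42, adjusted p = 5.40e-05, edgeR). PDE_07868, listed as hypothetical, was at 20.9, 29.4 and 28.2 FPKM in Δ*Podot1* and 3699, 2385 and 1667 FPKM in WT (log2 fold change -6.62, standard error 0.38, adjusted p = 5.23e-05, edgeR), and WT replicate 1 was its highest library. These genes, too, were selected by fold.

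By absolute level, the largest falls exceeded the largest rises, and most of these genes have no KEGG entry. PDE_08706 was at 585, 657 and 399 FPKM in Δ*Podot1* and 6599, 4111 and 3947 FPKM in WT (log2 fold change -3.17, standard error 0.31, adjusted p = 0.000311, edgeR's quasi-likelihood test). The neighbours PDE_00508 and PDE_00509 fell together. PDE_00508 was at 319, 386 and 418 FPKM in Δ*Podot1* and 4268, 2187 and 3446 FPKM in WT, and PDE_00509 was at 458, 521 and 616 FPKM in Δ*Podot1* and 5411, 2241 and 3583 FPKM in WT. PDE_06802 was at 675, 875 and 398 FPKM in Δ*Podot1* and 5526, 2860.4 and 3197 FPKM in WT, and PDE_06097 at 2406, 2893 and 2987 FPKM in Δ*Podot1* and 7314, 6227 and 5797 FPKM in WT. The groups did not overlap in any of these genes, as in all 612 genes called lower. PDE_06097 was not called without Δ*Podot1* replicate 2 (adjusted p = 0.055, edgeR). On the other side, PDE_01341 was at 2073, 1725 and 1011 FPKM in Δ*Podot1* and 228, 183 and 255 FPKM in WT (log2 fold change 2.81, standard error 0.31, adjusted p = 0.000592, edgeR). PDE_01191 was at 3594, 2381 and 1799 FPKM in Δ*Podot1* and 1351, 374 and 531 FPKM in WT, with WT replicate 1 above the other WT libraries. Its call was lost without WT replicate 2 or 3 or Δ*Podot1* replicate 1 or 2 (adjusted p 0.0716 to 0.0997, edgeR). PDE_02867 had the same pattern, with 2413, 1669 and 882 FPKM in Δ*Podot1* and 650.4, 102 and 95.8 FPKM in WT, and lost its call in the same 4 fits (adjusted p 0.092 to 0.106, edgeR).

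The annotation used here covers 422 of the 905 genes called higher and 280 of the 612 called lower. It comes from a table of genes that had been selected as changed in these same libraries. Counts over lists taken from it are therefore not independent evidence of a direction. They stand here as a description. Over all tested genes 10.7% were called higher and 7.22% lower, but of the 782 annotated genes 422 were called higher and 280 lower. Of the 394 with a KEGG entry at an e-value of 1e-10 or below, 239 were called higher and 122 lower. These shares of the annotated genes are the closer background for the counts below. Among its genes with a KEGG entry at an e-value of 1e-10 or below, transporters of the major facilitator superfamily were called higher in 11 and lower in 4 of 17 cases, ABC transporters in 4 and 0 of 5, and aminotransferases in 9 and 2 of 11. Cytochromes P450 and other monooxygenases were called higher in 4 and lower in 10 of 14, glycoside hydrolases and glucanosyltransferases in 5 and 8 of 13, and peptidases in 4 and 7 of 11.

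The 5 annotated genes of tyrosine breakdown were called higher in Δ*Podot1*, with a median log2 fold change of 4.50. In this route tyrosine is turned by transamination and 2 dioxygenases into maleylacetoacetate, and then into fumarate and acetoacetate. The aromatic amino acid aminotransferase gene PDE_08638, the entry step, was at 194, 141 and 139.6 FPKM in Δ*Podot1* and 52.2, 49.6 and 46.9 FPKM in WT (log2 fold change 1.64, standard error 0.20, adjusted p = 0.000932, edgeR's quasi-likelihood test). The 4-hydroxyphenylpyruvate dioxygenase gene PDE_08904 was at 31.3, 37.5 and 77.1 FPKM in Δ*Podot1* and 0.74, 0.52 and 0.61 FPKM in WT (log2 fold change 6.25, standard error 0.50, adjusted p = 0.00014, edgeR), highest in Δ*Podot1* replicate 3. In the first of these genes the replicates of a strain lay close together, in the second they did not. The homogentisate 1,2-dioxygenase gene PDE_08906, whose product opens the aromatic ring, was at 227, 216 and 115 FPKM in Δ*Podot1* and 24.1, 4.27 and 10.2 FPKM in WT (log2 fold change 3.88, standard error 0.55, adjusted p = 0.00191, edgeR), and here Δ*Podot1* replicate 3 was the lowest of its strain. The fumarylacetoacetase gene PDE_08907, the last enzyme, was at 505, 496 and 205 FPKM in Δ*Podot1* and 27.2, 9.06 and 16.8 FPKM in WT (log2 fold change 4.50, standard error 0.48, adjusted p = 0.000496, edgeR). The maleylacetoacetate isomerase gene PDE_08908 had 388 counts in Δ*Podot1* against 2 in WT, a ratio at equal depth of 184 (95% exact counting interval 50.5 to 1520). All 5 genes were called without each library in turn.

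Of the 11 nitrogen assimilation genes, 5 were called higher, 4 lower and 2 not called. Genes of nitrate reduction and ammonium uptake were on the lower side, with the formamidase gene PDE_01713, whose product releases ammonium from formamide. PDE_01713 was at 35.2, 33.1 and 37.3 FPKM in Δ*Podot1* and 72.5, 85.05 and 76.8 FPKM in WT (log2 fold change -1.18, standard error 0.19, adjusted p = 0.00336, edgeR). The nitrate reductase gene PDE_00369 was at 492, 542 and 1051 FPKM in Δ*Podot1* and 2936, 2158 and 2390.3 FPKM in WT (log2 fold change -1.85, standard error 0.40, adjusted p = 0.0126, edgeR's quasi-likelihood test). Beside it, the nitrite reductase gene PDE_00370, whose product makes ammonium, was at 1462, 1637 and 2881 FPKM in Δ*Podot1* and 6334, 4588 and 4797 FPKM in WT (log2 fold change -1.40, standard error 0.42, adjusted p = 0.0464, edgeR). An ammonium transporter gene, PDE_00679, was at 31.1, 57.2 and 96 FPKM in Δ*Podot1* and 105, 332 and 283 FPKM in WT, lowest of the WT libraries in replicate 1 (log2 fold change -2.02, standard error 0.55, adjusted p = 0.032, edgeR). The adjacent nitrate transporter gene PDE_00371 did not pass, with 330.3, 287 and 790.3 FPKM in Δ*Podot1* and 528, 1142 and 1168 FPKM in WT. Without Δ*Podot1* replicate 3 it was called lower (log2 fold change -1.73, adjusted p = 0.0323, against -1.06 and 0.171 with all libraries, edgeR). In the nitrate and ammonium genes Δ*Podot1* replicate 3 was the library of its strain nearest to WT. The calls depended on single libraries: without Δ*Podot1* replicate 1 or 2 the adjusted p was 0.0515 and 0.0804 for PDE_00369, 0.152 and 0.211 for PDE_00370, and 0.0971 and 0.119 for PDE_00679 (edgeR). Without WT replicate 2 or 3 it was 0.0737 and 0.0809 for PDE_00370, and 0.0814 and 0.069 for PDE_00679.

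Among the 5 genes called higher were those for glutamine, asparagine and glutamate metabolism named here. The glutamine synthetase gene PDE_04219 was at 861, 506 and 120.3 FPKM in Δ*Podot1* and 27.8, 24.4 and 32.9 FPKM in WT (log2 fold change 4.07, standard error 0.64, adjusted p = 0.00288, edgeR's quasi-likelihood test), so that its Δ*Podot1* libraries spread over a wide range above a narrow WT range. PDE_06146, which encodes asparagine synthase, was at 355, 273 and 249 FPKM in Δ*Podot1* and 75.3, 79.7 and 85.5 FPKM in WT (log2 fold change 1.83, standard error 0.23, adjusted p = 0.00115, edgeR). The NAD-dependent glutamate dehydrogenase gene PDE_06171, which releases ammonium from glutamate, was at 194, 139 and 38.5 FPKM in Δ*Podot1* and 16.2, 24.2 and 28.6 FPKM in WT (log2 fold change 2.36, standard error 0.54, adjusted p = 0.0158, edgeR). Its adjusted p in edgeR was 0.0519, 0.055 and 0.056 without WT replicate 2 and Δ*Podot1* replicates 1 and 2.

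**Figure D2:**
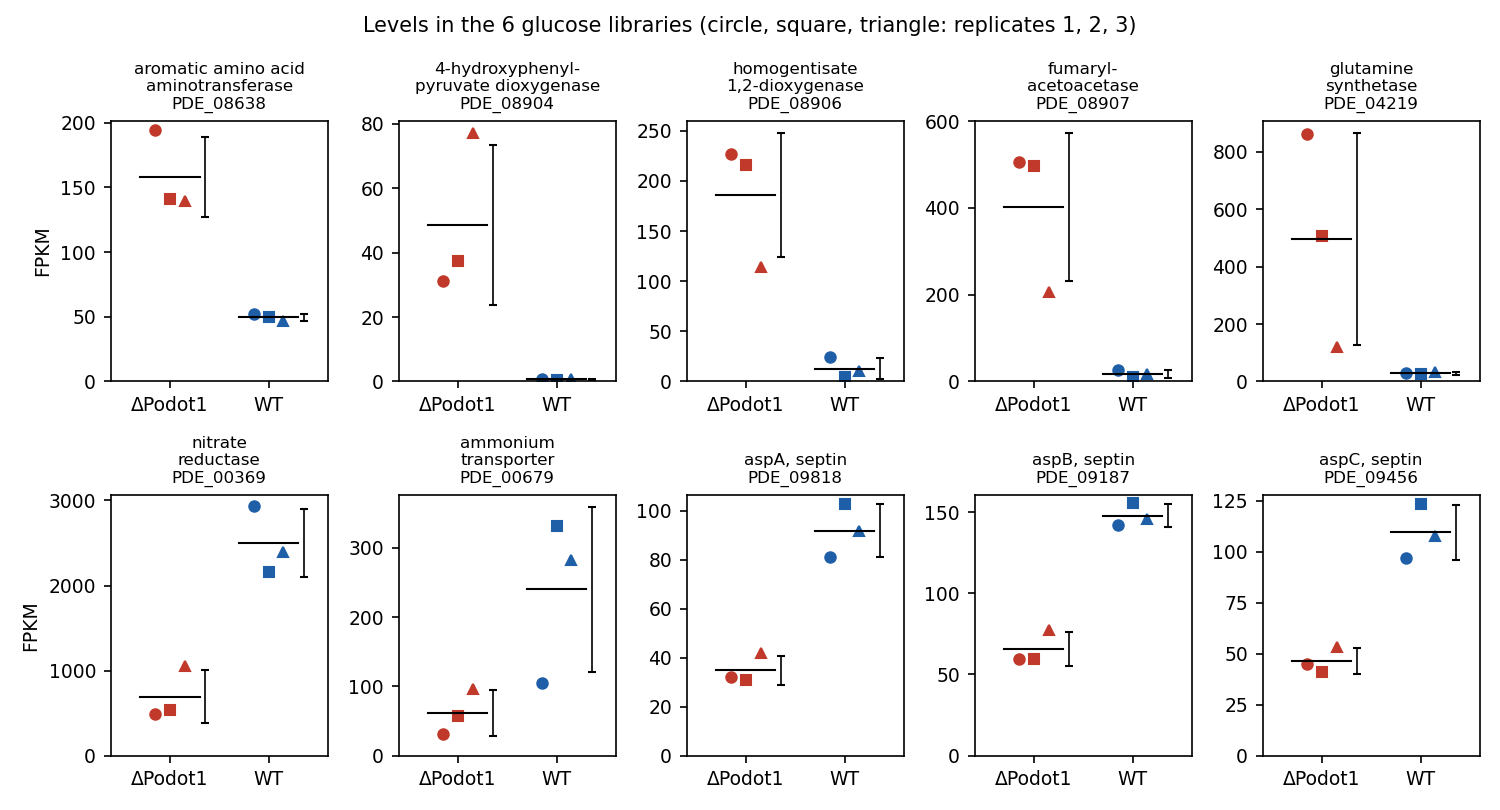
FPKM of 10 genes in each glucose library, Δ*Podot1* left and WT right, with the mean as a line and the SD as a bar (n = 3 each). The tyrosine breakdown genes and the glutamine synthetase gene are higher in every Δ*Podot1* library, the nitrate reductase, ammonium transporter and septin genes lower in every one, and Δ*Podot1* replicate 3 (triangle) often lies nearest to WT, as at 120 FPKM for PDE_04219.

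Of the 23 listed genes of amino acid biosynthesis, 20 were called higher and none lower, and the median log2 fold change was 1.28. The threonine synthase gene PDE_00306 was at 641, 703 and 673 FPKM in Δ*Podot1* and 164, 95.5 and 97.7 FPKM in WT (log2 fold change 2.50, standard error 0.23, adjusted p = 0.000274, edgeR's quasi-likelihood test). PDE_00873, which encodes DAHP synthase, the entry enzyme of aromatic amino acid synthesis, was at 305, 208 and 279 FPKM in Δ*Podot1* and 70.8, 88.5 and 108 FPKM in WT (log2 fold change 1.52, standard error 0.27, adjusted p = 0.00516, edgeR). Both genes rose in every Δ*Podot1* library. The homocitrate synthase gene PDE_03916, the first enzyme of the fungal lysine pathway, was at 319, 227 and 180.1 FPKM in Δ*Podot1* and 55.9, 71.1 and 82.8 FPKM in WT (log2 fold change 1.74, standard error 0.29, adjusted p = 0.0038, edgeR). In sulphur amino acid synthesis the cystathionine gamma-lyase gene PDE_00928 was at 267, 148 and 110.0 FPKM in Δ*Podot1* and 27.6, 37.2 and 36.4 FPKM in WT (log2 fold change 2.32, standard error 0.34, adjusted p = 0.00222, edgeR). The groups did not overlap in any of these 4 genes, as in 866 of the 905 genes called higher. All 4 were called without each library in turn. Most other rises were small, and between 14 and 17 of the 20 genes were called when 1 library was left out. The pentafunctional AROM gene PDE_00223, for example, had a log2 fold change of 1.15 and was not called in 5 of the 6 fits.

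Uptake and breakdown of amino acids and peptides gave 13 genes called higher and 5 lower of 19. Both peptide transporters of the POT family were among the higher genes. PDE_05978 was at 127, 129 and 107 FPKM in Δ*Podot1* and 13.5, 10.9 and 18.1 FPKM in WT, and PDE_06899 at 145, 129.8 and 119 FPKM in Δ*Podot1* and 0.09, 3.40 and 3.84 FPKM in WT (log2 fold change 5.62, standard error 0.77, adjusted p = 0.00167, edgeR's quasi-likelihood test). Of the 8 amino acid transporter genes, 6 were higher and 2 lower. PDE_04432 was at 61.4, 48.1 and 37.6 FPKM in Δ*Podot1* and 3.07, 2.93 and 4.06 FPKM in WT (log2 fold change 3.82, standard error 0.27, adjusted p = 9.87e-05, edgeR). In contrast, PDE_00830 was at 4.94, 3.20 and 2.70 FPKM in Δ*Podot1* and 35.4, 102 and 94.3 FPKM in WT (log2 fold change -4.49, standard error 0.49, adjusted p = 0.000592, edgeR). The 3 peptidase genes of the list were lower, while of the 11 peptidases with a KEGG entry 4 were called higher and 7 lower. The aspergillopepsin gene PDE_07344, a secreted acid protease, fell to 22.96, 21.6 and 24.3 FPKM in Δ*Podot1*, against 154, 256 and 334 FPKM in WT (log2 fold change -3.49, standard error 0.35, adjusted p = 0.000372, edgeR). The carboxypeptidase gene PDE_05305 fell to 43.4, 48.3 and 56.9 FPKM in Δ*Podot1*, against 467, 634 and 486 FPKM in WT (log2 fold change -3.45, standard error 0.27, adjusted p = 0.00014, edgeR). The 4-aminobutyrate aminotransferase gene PDE_09301, which opens the breakdown of GABA, was at 855, 999 and 182 FPKM in Δ*Podot1* and 197, 169 and 175 FPKM in WT, where Δ*Podot1* replicate 3 lay inside the WT range, and it was not called in 5 of the 6 fits that leave out 1 library (adjusted p 0.0787 to 0.135, edgeR), all but the one without Δ*Podot1* replicate 3.

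Of the 9 listed genes of phosphate acquisition, 7 were called lower, 1 higher and 1 not called, with a median log2 fold change of -2.92. The inorganic phosphate transporter gene PDE_04660 was at 3.11, 4.43 and 5.64 FPKM in Δ*Podot1* and 43.2, 94.02 and 77.02 FPKM in WT (log2 fold change -4.07, standard error 0.41, adjusted p = 0.000372, edgeR's quasi-likelihood test). The ribonuclease T2 gene PDE_00092, whose product breaks down RNA outside the cell and so frees phosphate, was at 22.5, 16.5 and 14.3 FPKM in Δ*Podot1* and 230.2, 321 and 367 FPKM in WT (log2 fold change -4.16, standard error 0.31, adjusted p = 0.000108, edgeR). Of 5 acid phosphatase genes 4 were lower, as PDE_03399 with 7.13, 6.58 and 2.97 FPKM in Δ*Podot1* and 76.8, 80.2 and 73 FPKM in WT (log2 fold change -3.82, standard error 0.32, adjusted p = 0.000171, edgeR). The fifth, PDE_06737, was higher, with 247, 148 and 62.5 FPKM in Δ*Podot1* and 19.8, 10 and 8.59 FPKM in WT (log2 fold change 3.57, standard error 0.50, adjusted p = 0.00182, edgeR). The 8 calls of this group held without each library in turn. The gene not called, PDE_04356, was called higher without Δ*Podot1* replicate 3 (log2 fold change 1.59, adjusted p = 0.0169, edgeR).

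Cell wall genes were called in both directions, 9 higher and 11 lower of 20, all listed from genes already selected as changed. The 3 chitinase genes of this list, which cut the chitin of the wall, did not share a direction. PDE_09532 was at 160.1, 162 and 127 FPKM in Δ*Podot1* and 7.49, 7.28 and 7.98 FPKM in WT (log2 fold change 4.27, standard error 0.22, adjusted p = 5.12e-05, edgeR's quasi-likelihood test). In contrast, PDE_06566 was at 1.25, 1.07 and 0.73 FPKM in Δ*Podot1* and 19.8, 30.4 and 39.2 FPKM in WT (log2 fold change -4.93, standard error 0.38, adjusted p = 0.000124, edgeR). The third, PDE_01573, was at 10.2, 14.8 and 15.9 FPKM in Δ*Podot1* and 84.6, 118 and 123 FPKM in WT. Another chitinase gene, *chi18A* (PDE_08122), is among the 10 most abundant secreted glycoside hydrolases and was not called. PDE_06567, the tag next to PDE_06566 and annotated as a chitin-binding protein, was at 0.5, 0.37 and 0.31 FPKM in Δ*Podot1* and 9.86, 21.9 and 25.4 FPKM in WT (log2 fold change -5.64, standard error 0.51, adjusted p = 0.000242, edgeR). The chitin glucanosyltransferase genes, which link chitin to glucan, also differed: PDE_01690 was at 138, 174 and 213 FPKM in Δ*Podot1* and 862, 937 and 908 FPKM in WT, while PDE_00401 was at 807, 1115 and 462 FPKM in Δ*Podot1* and 379.5, 256 and 235 FPKM in WT. The glucosamine-fructose-6-phosphate aminotransferase gene PDE_02490, the first step towards chitin, was at 1124, 894 and 491 FPKM in Δ*Podot1* and 231, 263 and 278 FPKM in WT (log2 fold change 1.65, standard error 0.34, adjusted p = 0.0101, edgeR). Between 13 and 19 of the 20 calls were kept when 1 library was left out, fewest without Δ*Podot1* replicate 2. PDE_00401 was lost there (adjusted p = 0.07) and without WT replicate 2 or 3 (0.0752 each, edgeR).

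Septins form filaments at the sites of septa and branches. The paper names 5 septin genes, and 4 septin genes are found in the annotation used here. A septin gene not selected as changed would be absent from it, and none outside it is given a value here. The 4 found were all called lower, with log2 fold changes between -1.43 and -1.20. Since that annotation holds only genes selected as changed, their shared direction is a description. For *aspA* (PDE_09818) the levels were 32.2, 30.7 and 41.7 FPKM in Δ*Podot1* and 81.1, 103 and 91.7 FPKM in WT (log2 fold change -1.43, standard error 0.23, adjusted p = 0.00315, edgeR's quasi-likelihood test). All 4 calls held without each library in turn. Other genes of hyphal growth were called in both directions. The annexin gene PDE_08385, which encodes a membrane-binding protein, was at 676, 569 and 489.8 FPKM in Δ*Podot1* and 95.9, 41.4 and 49.5 FPKM in WT (log2 fold change 3.22, standard error 0.32, adjusted p = 0.000367, edgeR). The kinesin gene PDE_09893 was at 54, 49.05 and 25.2 FPKM in Δ*Podot1* and 12.98, 9.15 and 10.61 FPKM in WT (log2 fold change 1.94, standard error 0.29, adjusted p = 0.00246, edgeR). Among the lower genes was the IQGAP-type gene PDE_04671, whose relative in yeast acts in the contractile ring, at 10.8, 10.5 and 14.1 FPKM in Δ*Podot1* and 33.3, 42.6 and 44.3 FPKM in WT (log2 fold change -1.80, standard error 0.25, adjusted p = 0.00165, edgeR). Of the 7 genes of hyphal polarity and the cytoskeleton, 5 were called higher and 2 lower.

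Of the 16 listed genes of stress, signalling and ion transport, 12 were called higher and 2 lower. Pumps that move sodium and calcium out of the cytosol had the largest changes of the list. The calcium-transporting ATPase gene PDE_05150 was at 48, 49.9 and 45.4 FPKM in Δ*Podot1* and 2.42, 3.24 and 3.34 FPKM in WT (log2 fold change 3.94, standard error 0.24, adjusted p = 5.40e-05, edgeR's quasi-likelihood test). PDE_04634, which encodes a sodium-exporting ATPase, was at 74.6, 79.1 and 84.3 FPKM in Δ*Podot1* and 9.46, 7.86 and 9.41 FPKM in WT (log2 fold change 3.13, standard error 0.20, adjusted p = 6.09e-05, edgeR). The gene for PacC (PDE_05163), the zinc-finger regulator that responds to ambient pH in fungi, was at 105, 138 and 125 FPKM in Δ*Podot1* and 34.3, 24 and 28.8 FPKM in WT (log2 fold change 2.07, standard error 0.21, adjusted p = 0.000373, edgeR). In these 3 genes the replicates of each strain lay close together. Of the p38-type MAP kinase genes, which act in the response to osmotic stress, PDE_05603 was at 280.3, 212 and 121 FPKM in Δ*Podot1* and 36.4, 23.2 and 20.6 FPKM in WT (log2 fold change 2.92, standard error 0.33, adjusted p = 0.00065, edgeR). The other, PDE_00126, was at 241, 264 and 213 FPKM in Δ*Podot1* and 83.01, 107 and 92.8 FPKM in WT (log2 fold change 1.31, standard error 0.22, adjusted p = 0.00415, edgeR). The superoxide dismutase gene PDE_00326 was at 1649.8, 1774 and 2037 FPKM in Δ*Podot1* and 4756, 3543 and 3194 FPKM in WT. That call was lost without WT replicate 1 or 2 or Δ*Podot1* replicate 1 or 2, where the log2 fold change was -0.99, -1.16, -0.996 and -1.06. Of the 14 calls, 7 were kept without Δ*Podot1* replicate 2, and leaving out WT replicate 2 kept 8.

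Iron and zinc genes, listed from genes already selected as changed, were called higher in 6 cases and lower in 4 of 10. Within the siderophore-iron transporters, which take up iron bound to a chelator, the low and the abundant genes moved in opposite directions. PDE_00592 was at 28.6, 38.6 and 66.04 FPKM in Δ*Podot1* and 1.31, 2.28 and 2.35 FPKM in WT, and PDE_06674 at 20.04, 22.9 and 32.4 FPKM in Δ*Podot1* and 1.04, 2.12 and 1.63 FPKM in WT (log2 fold change 3.90, standard error 0.36, adjusted p = 0.000274, edgeR's quasi-likelihood test). By comparison, PDE_06096 was at 812, 1130.3 and 1486 FPKM in Δ*Podot1* and 2715, 3957 and 3645 FPKM in WT. Its call was lost without Δ*Podot1* replicate 1 or 2 (adjusted p 0.0638 and 0.0892, edgeR). The list kept 6 of its 10 calls without Δ*Podot1* replicate 2 and 7 without Δ*Podot1* replicate 1.

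Central carbon metabolism had 8 genes called higher and 1 lower of 13. The acyl-CoA oxidase gene PDE_02167, the first step of fatty acid breakdown in peroxisomes, was at 95.98, 121 and 54.2 FPKM in Δ*Podot1* and 13.4, 13.9 and 18.01 FPKM in WT (log2 fold change 2.54, standard error 0.32, adjusted p = 0.00116, edgeR's quasi-likelihood test). PDE_06831, which encodes glycerol-3-phosphate dehydrogenase, was at 243, 209 and 168 FPKM in Δ*Podot1* and 65.5, 75.5 and 84.8 FPKM in WT (log2 fold change 1.41, standard error 0.24, adjusted p = 0.00439, edgeR). The one gene called lower, the isocitrate lyase gene PDE_08297 of the glyoxylate cycle, was at 22.1, 32.1 and 17.3 FPKM in Δ*Podot1* and 183, 42.5 and 60.5 FPKM in WT, with WT replicate 1 far above the others. It was not called without Δ*Podot1* replicate 1 or 3 (adjusted p 0.0818 and 0.0636, edgeR). Between 4 and 7 of the 9 calls were kept when 1 library was left out, with 6 without WT replicate 1, 5 without WT replicate 2 or 3 or Δ*Podot1* replicate 1, and 4 without Δ*Podot1* replicate 2.

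Genes of transcription and chromatin with an annotation were called higher in 5 of 6 cases. The Rtf1 gene PDE_01860, in yeast a subunit of the Paf1 complex that histone methylation by Dot1 requires, was at 143, 154 and 92.1 FPKM in Δ*Podot1* and 49.8, 42.9 and 41.4 FPKM in WT (log2 fold change 1.51, standard error 0.22, adjusted p = 0.00223, edgeR's quasi-likelihood test). The TATA-box-binding protein gene PDE_04702 was at 275, 261 and 189.9 FPKM in Δ*Podot1* and 67.6, 105 and 99.1 FPKM in WT (log2 fold change 1.36, standard error 0.27, adjusted p = 0.00807, edgeR). In 6 of the 6 genes Δ*Podot1* replicate 3 was the library of its strain nearest to WT. Across all genes called higher that held for 68.2%.

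Counts in the 2 lists that were not chosen on these libraries are given beside the shares over all tested genes, and nothing is read from them. Of the 14 genes whose proteins were captured with *Po*Dot1, 1 was called higher and none lower (median log2 fold change -0.18), beside 10.7% and 7.22% of all tested genes. Without Δ*Podot1* replicate 3, 2 of the 14 were called. The gene called with all libraries was the tyrosyl-tRNA synthetase gene PDE_00455, with 242, 187 and 218 FPKM in Δ*Podot1* and 95.5, 84.97 and 83.3 FPKM in WT (log2 fold change 1.27, standard error 0.19, adjusted p = 0.00211, edgeR's quasi-likelihood test). Of the genes for the 10 most abundant secreted glycoside hydrolases, 1 was called higher and none lower (median log2 fold change 0.33). This was *cel3A*/*bgl1* (PDE_02736), a beta-glucosidase gene that stayed below 8 FPKM in every library, and its call was lost without WT replicate 1 or 2 or Δ*Podot1* replicate 2 or 3. The cellobiohydrolase gene *cel7A*/*cbh1* (PDE_07945) was at 44.7, 37.2 and 43.7 FPKM in Δ*Podot1* and 30.2, 33.7 and 37.7 FPKM in WT, and these ranges overlapped.

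**Figure D3:**
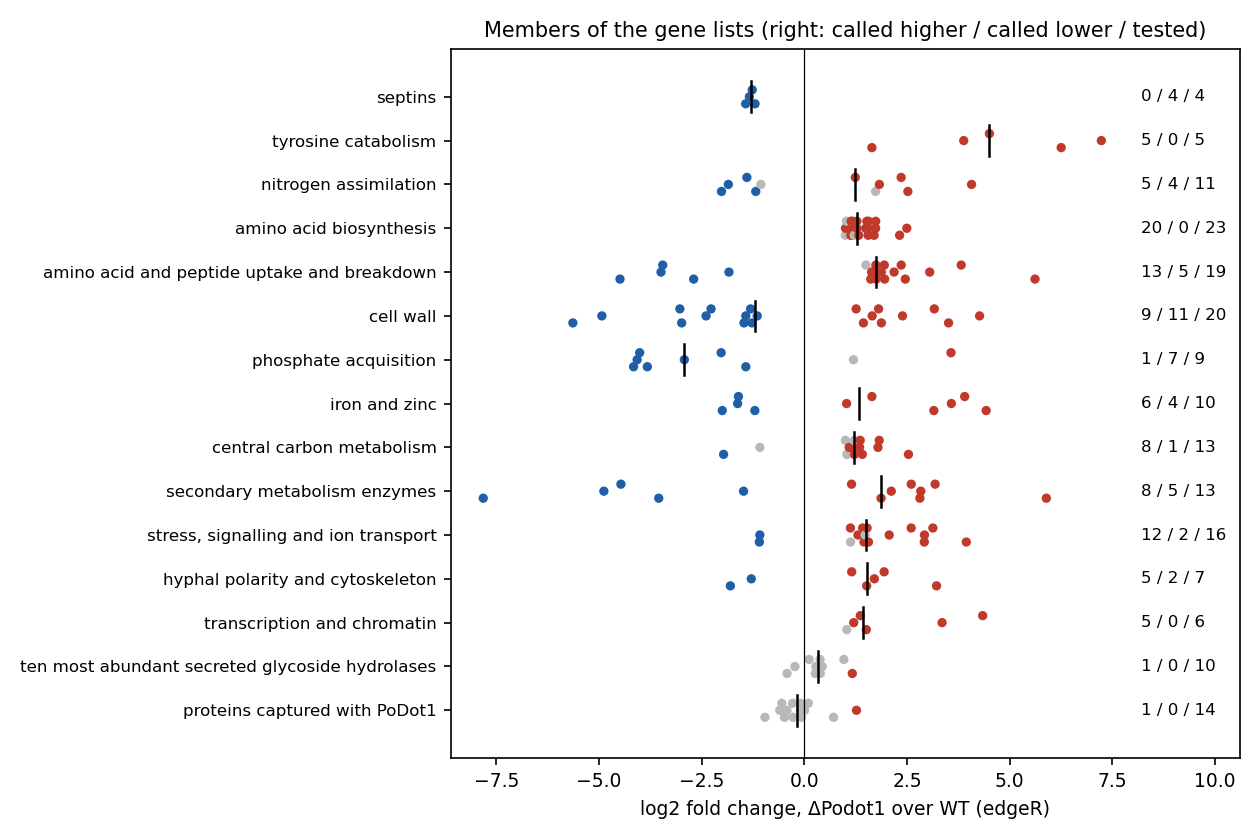
Log2 fold change (Δ*Podot1* over WT, edgeR) of the members of 15 gene lists, with red points called higher, blue called lower and grey not called, and a bar at each median. The last 2 lists were not chosen on these libraries, and in them 1 of 10 and 1 of 14 genes were called.

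Of the 13 listed secondary metabolism enzymes, 8 were called higher and 5 lower. The list was drawn from genes already selected as changed in these libraries, so that all were called is no result. By locus tag, 4 of the higher genes lay between PDE_01212 and PDE_01220. A non-ribosomal peptide synthetase gene of the brevianamide F synthase type, PDE_01212, was at 175, 209 and 262 FPKM in Δ*Podot1* and 32.5, 17.96 and 38.7 FPKM in WT (log2 fold change 2.84, standard error 0.39, adjusted p = 0.00165, edgeR's quasi-likelihood test). The fatty acid synthase subunit genes PDE_01216, PDE_01217 and PDE_01220 follow it. Their annotation names fatty acid synthase only, and a part of these genes in secondary metabolism was not tested. PDE_01217, the alpha subunit, was at 357, 347 and 527 FPKM in Δ*Podot1* and 91.1, 34.1 and 77.1 FPKM in WT (log2 fold change 2.60, standard error 0.40, adjusted p = 0.00266, edgeR). On the lower side, the cytochrome P450 gene PDE_08660 of the averantin hydroxylase type was at 11.4, 14.1 and 8.76 FPKM in Δ*Podot1* and 237, 284 and 218 FPKM in WT (log2 fold change -4.47, standard error 0.27, adjusted p = 5.40e-05, edgeR). The tyrosinase gene PDE_03554, whose relatives make melanin, was at 2.40, 1.68 and 0.97 FPKM in Δ*Podot1* and 32.2, 66.5 and 45.6 FPKM in WT (log2 fold change -4.88, standard error 0.44, adjusted p = 0.000238, edgeR). In 2 of these 13 genes Δ*Podot1* replicate 3 was nearest to WT, and in 10 of the 11 nitrogen genes. Across all called genes it was nearest in 68.2% of the higher and 37.9% of the lower ones. The difference between the lists was not tested. The gene PDE_01188, annotated as a spore wall maturation protein, is the one gene with a spore annotation here. It was at 367, 238 and 328 FPKM in Δ*Podot1* and 26.1, 3.49 and 4.89 FPKM in WT (log2 fold change 4.83, standard error 0.71, adjusted p = 0.00217, edgeR). Its part in the other results was not tested.

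The called genes were then placed along the order of their locus tags. No coordinates were available here, so tag order stands in for position, which was not checked. Tested genes were put in tag order. The ends of scaffolds are not known from the tags. In this order 638 of the 1517 called genes (42.1%) had an adjacent tested gene called in the same direction. These were 385 of the 905 higher genes (42.5%) and 253 of the 612 lower genes (41.3%). Of all 8479 tested genes, 19.5% had a neighbour called higher and 13.4% one called lower. Runs of at least 3 adjacent genes called the same way numbered 73 and held 270 genes (17.8% of the calls), with 43 runs of higher and 30 of lower genes. The longest run held 9 genes called higher, and the longest run of lower genes held 8. No chance test was made of these counts. Without Δ*Podot1* replicate 2, where 1000 genes were called, the share with a neighbour was 36.4%. The share over all tested genes was not computed for that fit.

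The longest run was PDE_01215 to PDE_01223, 9 genes with log2 fold changes of 1.28 to 2.60. It holds the fatty acid synthase genes, the branched-chain amino acid aminotransferase gene PDE_01215 and an ABC transporter gene, PDE_01218. PDE_01218 was at 189, 153 and 211 FPKM in Δ*Podot1* and 41.1, 26.6 and 47.5 FPKM in WT (log2 fold change 2.23, standard error 0.29, adjusted p = 0.00135, edgeR's quasi-likelihood test). Both ends of the run were less firm. PDE_01215 was lost without WT replicate 2 or 3 or Δ*Podot1* replicate 3, and PDE_01223 without WT replicate 2 or 3 or Δ*Podot1* replicate 1 or 2. A few tags on, PDE_01230 to PDE_01234 formed a run of 5 genes called lower, with log2 fold changes of -2.77 to -1.60. That run holds the zinc transporter gene PDE_01231 and the monooxygenase gene PDE_01233, which was at 21.97, 30.5 and 24.8 FPKM in Δ*Podot1* and 125, 65.2 and 63.4 FPKM in WT (log2 fold change -1.71, standard error 0.27, adjusted p = 0.00292, edgeR). The window of 50 tested genes from PDE_01193 to PDE_01256 held 16 genes called higher, the most of the 169 windows (median 5), and 10 called lower (median 3). The window from PDE_03290 to PDE_03348, which includes PDE_03319, held 14 genes called lower, again the most, and 3 called higher.

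A second run of higher genes, PDE_02463 to PDE_02470, held 8 genes, and 1 of them, PDE_02465 with a hit to 8-oxo-dGTP diphosphatase, has a KEGG entry. The first gene, PDE_02463, was not called in 5 of the 6 fits that leave out 1 library. PDE_02467, within the run, was not called without WT replicate 1, 2 or 3 (adjusted p 0.0608, 0.111 and 0.0928, edgeR), which splits the run. The most abundant member of the run, PDE_02469, was at 1090.2, 1186 and 1279 FPKM in Δ*Podot1* and 121, 175 and 163 FPKM in WT (log2 fold change 2.91, standard error 0.27, adjusted p = 0.000254, edgeR's quasi-likelihood test). PDE_02466 was at 395, 447 and 569.6 FPKM in Δ*Podot1* and 118, 63.9 and 52.2 FPKM in WT (log2 fold change 2.60, standard error 0.31, adjusted p = 0.000857, edgeR). The run PDE_01682 to PDE_01689 held 7 genes, among them PDE_01689, a cytochrome P450 fused to its reductase, at 297, 425 and 353 FPKM in Δ*Podot1* and 169.8, 61.4 and 77.3 FPKM in WT (log2 fold change 1.82, standard error 0.37, adjusted p = 0.0093, edgeR). Within this run PDE_01686 was not called without WT replicate 2 or 3 (adjusted p 0.0732 and 0.0613), and PDE_01687 not without WT replicate 1 or 2 or Δ*Podot1* replicate 1 or 2 (0.0513 to 0.0992, edgeR). The next tag after it, the chitin glucanosyltransferase gene PDE_01690, was called the other way, so that the direction changed between neighbours. Of the tyrosine breakdown genes, 4 lay in the run PDE_08904 to PDE_08909 of 6 genes, with a median log2 fold change of 5.08, and PDE_04258 to PDE_04265 formed another of 6, which holds the amino acid transporter gene PDE_04259. PDE_04258 was not called without WT replicate 2 or 3 or Δ*Podot1* replicate 2 (adjusted p 0.0503 to 0.0612, edgeR). In the tyrosine run, PDE_08905 has no annotated role and was at 34.97, 41.5 and 86.7 FPKM in Δ*Podot1* and 0.8, 1.51 and 0.73 FPKM in WT (log2 fold change 5.66, standard error 0.53, adjusted p = 0.00028, edgeR), with the same order of Δ*Podot1* replicates as PDE_08904. PDE_08909 at its end was not called without Δ*Podot1* replicate 2 (adjusted p = 0.0566, edgeR).

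The longest run of lower genes, PDE_02115 to PDE_02130, held 8 tested genes with log2 fold changes of -7.82 to -1.06. It spans 16 tags, and the tags between its genes were not tested. The run includes the O-methyltransferase gene PDE_02123. In Δ*Podot1*, PDE_02118, PDE_02121, PDE_02122 and PDE_02123 held 8, 5, 1 and 2 counts. These genes passed the filter on low counts through their WT libraries. PDE_02118 was at 0.33, 0.22 and 0.33 FPKM in Δ*Podot1* and 5.84, 6.22 and 3.99 FPKM in WT (log2 fold change -4.15, standard error 0.40, adjusted p = 0.000304, edgeR's quasi-likelihood test). PDE_02121 was at 0.1, 0.1 and 0.3 FPKM in Δ*Podot1* and 6.10, 7.13 and 6.54 FPKM in WT (log2 fold change -5.21, standard error 0.45, adjusted p = 0.000196, edgeR). The strains did not overlap in any of the 8 genes, as in all 612 genes called lower and in 42.3% of all tested genes. The highest WT mean among the 8 was 72.1 FPKM. PDE_02115, the first gene, was not called without Δ*Podot1* replicate 1 or 3, and PDE_02128 not without Δ*Podot1* replicate 1. The run PDE_05884 to PDE_05889 held 5 genes without annotation here, with a median log2 fold change of -3.95. PDE_05886 was at 4.94, 5.10 and 4.87 FPKM in Δ*Podot1* and 179, 223 and 236 FPKM in WT (log2 fold change -5.46, standard error 0.26, adjusted p = 5.12e-05, edgeR). PDE_08154 to PDE_08159 held 5 abundant genes, with WT means of 238 to 945 FPKM. PDE_08155, which resembles a 4-coumarate-CoA ligase, was at 37.02, 48.4 and 39.6 FPKM in Δ*Podot1* and 459, 208 and 292 FPKM in WT (log2 fold change -2.94, standard error 0.30, adjusted p = 0.000427, edgeR). PDE_08156, an oxidoreductase by its GO term, was at 87.4, 137 and 126 FPKM in Δ*Podot1* and 1215, 732 and 888 FPKM in WT (log2 fold change -3.02, standard error 0.28, adjusted p = 0.000278, edgeR). A run of 5 genes, PDE_06490 to PDE_06497, had smaller changes (median log2 fold change -1.68), and 4 of its genes lost their call without at least 1 library.

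**Figure D4:**
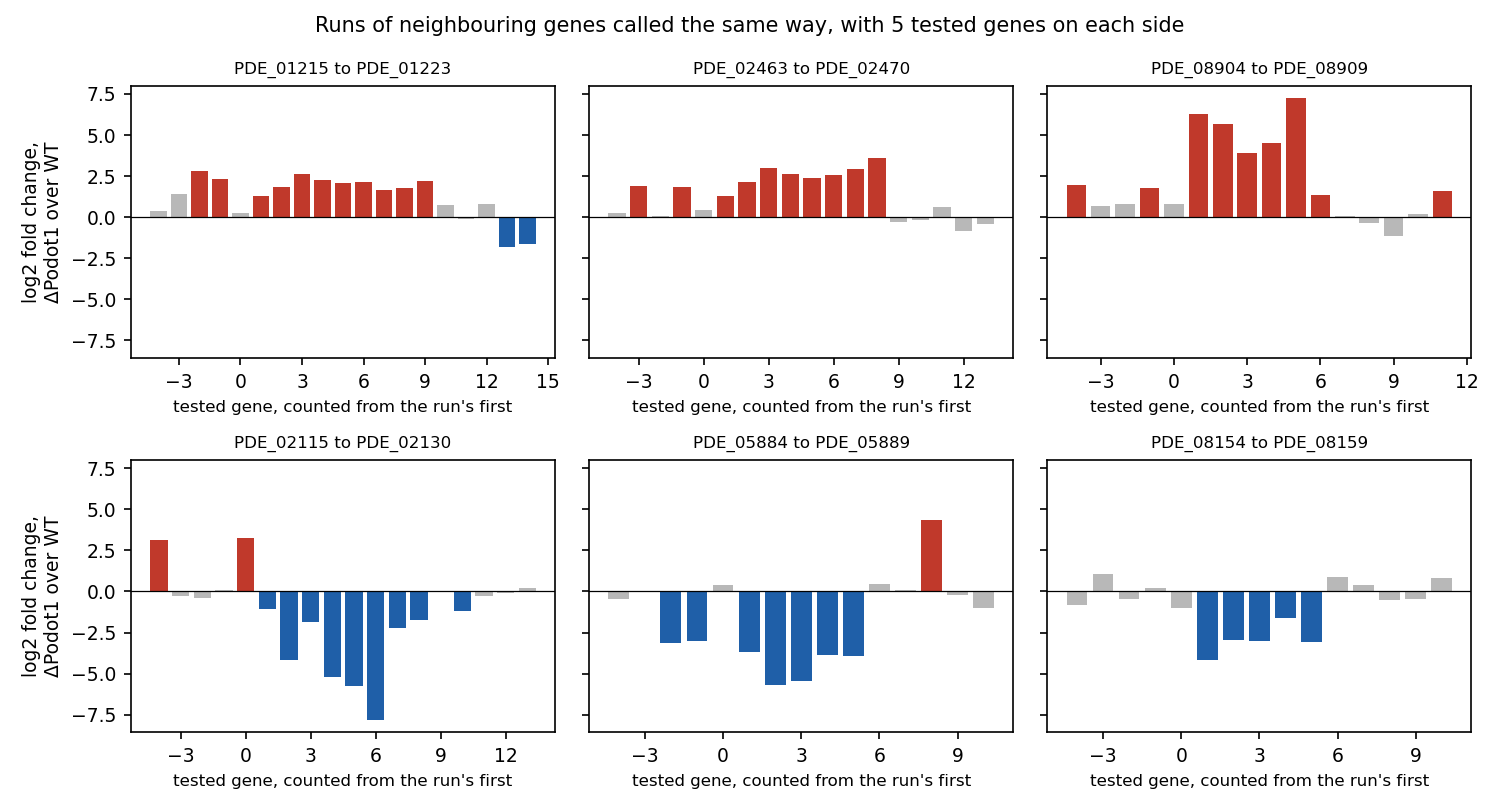
Log2 fold change (Δ*Podot1* over WT, edgeR) of tested genes in 6 of the 10 longest runs and of 5 tested genes on each side, in tag order counted from the first gene of the run; red is called higher, blue called lower, grey not called. The upper row shows runs of 9, 8 and 6 higher genes and the lower row runs of 8, 5 and 5 lower genes.

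Genes called higher had a low level in WT, and genes called lower a high one. In WT in glucose the median was 8.79 FPKM (quartiles 2.52 and 25.9) for genes called higher, 35.4 FPKM (14.4 and 116) for genes called lower and 28.6 FPKM (12.4 and 65.7) for the 6962 genes not called. The calls use these same WT libraries, so that their order there is a description and no test is given. Over the mean of all 6 libraries the medians were closer, at 23.2 FPKM for genes called higher, 22.9 FPKM for genes called lower and 29.0 FPKM for genes not called. The WT libraries in cellulose medium were not used for the calls. There the median was 13.0 FPKM (quartiles 4 and 33.3) for genes called higher, 57.0 FPKM (20.7 and 186) for genes called lower and 32.8 FPKM (15.01 and 68.4) for genes not called.

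The share of genes called also varied with the level in WT in cellulose medium. Of the 182 tested genes below 1 FPKM there, 48.4% were called higher in Δ*Podot1* in glucose and 7.69% lower. Between 1 and 10 FPKM the shares were 20.7% and 4.91% of 1466 genes, and between 10 and 100 FPKM they were 8.15% and 5.37% of 5459 genes. At 100 FPKM or more, 5.03% of 1372 genes were called higher and 17.0% lower. By the mean level in the 6 glucose libraries the shares ran from 20% higher and 5.71% lower below 1 FPKM (70 genes) to 10.04% higher and 8.62% lower at 100 FPKM or more (1404 genes). A gene low in WT in cellulose could pass the filter on low counts in glucose through its Δ*Podot1* libraries alone, so the share in the lowest class is a description of the genes that passed.

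**Figure D5:**
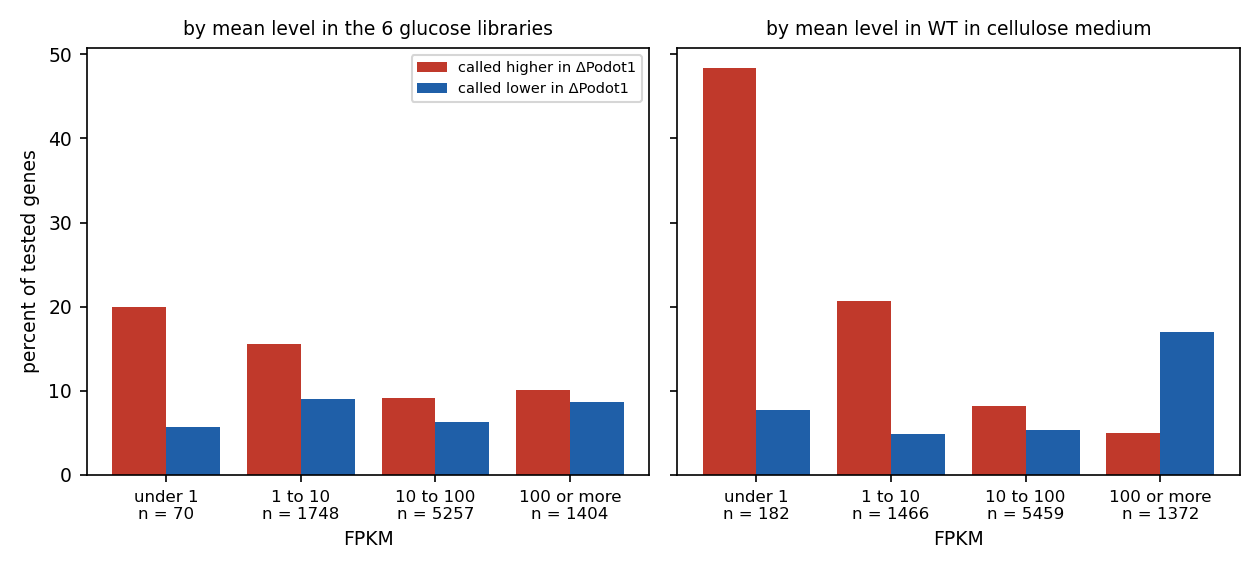
Percent of tested genes called higher (red) and lower (blue) in Δ*Podot1* in glucose, by class of mean FPKM in the 6 glucose libraries (left) and in WT in cellulose medium, which the calls did not use (right); n is the number of tested genes in a class. In the right panel the share called higher is 48.4% in the lowest class and 5.03% in the highest, and the share called lower is 7.69% and 17.0%.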

How the data were processed

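RNA-seq values of 6 libraries were analysed, Δ*Podot1* and WT in glucose, with 3 biological replicates each, and groups came from the sample labels. The labels describe tag profiling and the paper RNA-seq, and the tables give each gene a length and an FPKM, as RNA-seq does. The authors deposited an estimated count per gene, not normalized, and FPKM, normalized by the authors for length and depth. HISAT and Bowtie2 did the mapping, per the paper, which gives neither their versions nor the counting program. Near-identical genes may share reads. Genes that a table does not list were taken as 0.

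The estimated counts, rounded, were tested with the quasi-likelihood method of edgeR 4.0.16 (R 4.3.3; filterByExpr, then TMM) on these 6 libraries alone, without a block. Of 9794 listed genes 8479 were tested. The design allowed for either unit, and the tables held counts. Calls needed an adjusted p (Benjamini-Hochberg) under 0.05 and a 2-fold change. A standard error was derived as the size of the log2 fold change over the root of F, which is rough at few counts. Intervals are exact, at 95%, and cover counting error only. The method was tested on simulated data. Members, lists and tests were chosen with earlier results of these data known. Named genes were *Podot1*, members of 16 lists, the 6 largest rises and falls by fold (non-overlapping, mean of at least 10 FPKM in the higher strain) and by FPKM, the longest runs in each direction (4, with ties), and 4 genes on each side of the 2-fold threshold. PDE_01188, the one gene annotated for spores, was added as a marker.

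As alternatives, DESeq2 1.42.0 was run, limma 3.58.1 was run on log2 FPKM and log2 TPM with several pseudocounts, and other scalings, filters and thresholds, all 12 libraries in the fit, a replicate block and the omission of each library were tried. The authors' own fold changes and probabilities were not used.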

Additional observations from a re-analysis of the deposited data

Results flagged for a closer look

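The libraries labelled Δ*Podot1* replicates 1 and 2 in the cellulose medium, which the comparison in glucose does not use, held 341 and 613 counts of *Podot1*. The third library of that label held 0, and the WT libraries in the cellulose medium held 264, 244 and 230. In glucose the Δ*Podot1* libraries held 0, 1 and 2 counts.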

How the results depend on the processing

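The number of called genes was 1517 (905 higher, 612 lower) and stayed within 1.5 times of that under DESeq2, other scalings, limma with pseudocounts of 1 and 0.1, and most filters. With all 12 libraries in the fit it was 803 (439 higher, 364 lower). It was 732 (426 and 306) with limma on log2(FPKM + 10) and 588 (362 and 226) at a 4-fold threshold. The fit of all 12 libraries includes cellulose libraries labelled Δ*Podot1* that held 341 and 613 counts of *Podot1*. Their part in its lower number of calls was not tested. Genes called over the lists numbered 83 with all 12 libraries and 62 at 4-fold. Leaving out 1 library gave 1000 to 1788 calls, of which 584 to 1112 were higher. The share of called genes with a neighbour called the same way was 42.1%. It was 30.8% with all 12 libraries, 29.4% with limma on log2(FPKM + 10) and 35.2% with a mean of at least 10 FPKM. It was 37.9% at 4-fold, 38.2% in the order of all listed genes and 52.1% where 1 uncalled gene may lie within a run. Leaving out 1 library gave 36.4% to 43.6%. Such a share depends on how many genes are called and on the rule for a neighbour. The share over all tested genes was computed for the main fit only, so these values do not tell whether clustering was stronger or weaker. TPM rescales the FPKM of each library to a common sum and is another unit. In TPM the median WT level was 11.5 for genes called higher and 46.4 for genes called lower. Under limma's calls the median WT level of genes called lower was 37.2 FPKM, and the cause of that difference was not tested. Of 219 named genes that were called, 79 were called under all 20 alternatives, 107 under all but the 4-fold threshold and 151 without each library in turn, and 0 reversed.

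With the replicate number as a replicate block, 1475 genes were called (891 higher, 584 lower), of which 1380 were also called without it. Deviations of same-numbered libraries correlated at 0.0668, -0.102 and 0.131, so the numbers were not taken as pairs. With library totals of 4829544 to 7081691, ratios that rest on a group with 2 or 3 counts have wide intervals, as 50.5 to 1520 for PDE_08908.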
